A study of Mus musculus with 6 samples.

Results

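Oligodendrocytes are the glial cells that wrap axons of the brain and spinal cord in myelin, a stack of membrane held together by a small set of very abundant proteins. Mbp and Mobp are cytoplasmic proteins of compact myelin, Mag sits on the membrane next to the axon, Mog lies on the outer surface of the sheath, Cnp is an enzyme of the non-compact cytoplasmic channels, and Cldn11 forms the tight junctions between the turns of myelin. Sox10, Olig1 and Olig2 are transcription factors that specify the oligodendrocyte lineage and drive the myelin genes. Microglia, the resident macrophages of the brain, take up myelin debris but are not the cells that make myelin. The 9 genes are therefore used here as markers of another cell type. Whether the microglia themselves express any of them, Cnp and Mbp included, was not tested.

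The 9 genes were chosen by symbol and all 9 were found among the 24411 symbols of the deposited count table. RNA sequencing had been done on primary microglia from the brains of 8-week-old C57BL/6J mice. The groups were Mir137 knockout (gKO, 3 libraries) and Mir137 wild type (gWT, 3 libraries). The sources used here do not say how the microglia were purified. The design text speaks of 4 mice without tying them to libraries, so the 3 libraries of a genotype may be technical repeats, and p-values measure only the spread between these libraries.

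The libraries held 14603884 to 17652976 counts in gKO, against 16328561 to 17306422 in gWT, with 13832 to 14090 detected genes in gKO and 15012 to 15277 in gWT. Mir137 itself was listed at 0 in all 6 libraries, so its counts do not check the genotype labels. The microRNA precursor is a short RNA that libraries of long RNA seldom capture. The third gKO library stood apart from the other gKO libraries, since a chi-square of its counts, divided by the degrees of freedom, was 106 and 105 against them, while those 2 gave 13.4 against each other and the gWT pairs 6.54 to 12.1. Results are therefore also given without it. Markers of the labelled cell type were abundant in both groups: the 12 microglial genes, which include Csf1r and Cx3cr1, summed to 42611 ± 1357 CPM in gKO, against 42050 ± 1742 CPM in gWT (SD over 3 libraries each), where CPM are counts scaled to the library's total by edgeR's TMM method.

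The sequences below give an arm of the microRNA that the knockout removes and the promoters of a pair of member genes that differ most in one motif. Mouse Mir137 has 2 annotated mature arms, and target sites were searched for the 3p arm alone. Mature miR-137-3p (RefSeq, GRCm38.p6, chr3:118433901-118433923, plus strand) has its seed, bases 2 to 8, in capitals.
miR-137-3p: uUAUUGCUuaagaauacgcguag
A target site that pairs with this seed reads AGCAATA in a messenger RNA. The longest annotated coding transcript of each gene (GENCODE M21, GRCm38) was searched for it between the stop codon and the transcript's end. None of the 9 genes held the site, in 535 to 3935 bases searched per gene. Among all tested genes with such a region, 1330 of 12939 (10.3%) held at least 1. At a like length the share ranged from 3.07% for Mag to 24.7% for Mbp, so absence of the site was the more common state at each of the 9 lengths.

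Promoters were taken as 250 bases before to 50 bases after the annotated start, and 6 of the 9 genes had one in the RefSeq table (Mog, Mag, Mobp, Cnp, Cldn11 and Olig2). The motif ACAANG, the core bound by SOX factors such as Sox10, was searched on both strands, and its matches are in capitals. The promoter of Mobp (GRCm38.p6, chr9:120149492-120149791, plus strand) held 6 matches, and that of Cldn11 (chr3:31149670-31149969, plus strand) held 0.
Mobp promoter: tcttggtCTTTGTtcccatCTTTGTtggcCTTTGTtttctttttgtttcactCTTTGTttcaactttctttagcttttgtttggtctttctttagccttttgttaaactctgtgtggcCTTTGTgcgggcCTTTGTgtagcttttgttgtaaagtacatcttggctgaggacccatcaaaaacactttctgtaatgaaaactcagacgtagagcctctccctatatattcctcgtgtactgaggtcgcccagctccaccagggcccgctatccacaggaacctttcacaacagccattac
Cldn11 promoter: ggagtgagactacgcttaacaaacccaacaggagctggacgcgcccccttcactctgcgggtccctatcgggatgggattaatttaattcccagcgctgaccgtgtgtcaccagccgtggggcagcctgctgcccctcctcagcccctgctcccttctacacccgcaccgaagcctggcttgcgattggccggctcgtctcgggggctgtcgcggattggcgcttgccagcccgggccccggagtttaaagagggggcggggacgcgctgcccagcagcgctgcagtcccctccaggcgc
At least 1 match stood in 41.6% of 27025 promoters of that length, and 6 or more in 5 of them (0.0185%), a count looked up after that of Mobp was known. Mog, Cnp and Olig2 held 1 match each, and the 3 annotated starts of Mag held 2, 2 and 1. The motif CANNTG, the E-box read by Olig1 and Olig2, stood in 72.1% of promoters. It was found in those of Mag and Cnp and in none of the other 4, and shared no base with an ACAANG match. These matches describe letters in a window and nothing about binding.

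None of the 9 genes was called different between knockout and wild type at the threshold used. edgeR's quasi-likelihood test with Benjamini-Hochberg adjustment over all 13403 genes tested called 0 of 9 at an adjusted p under 0.05. It called 84 (0.627%) of all genes, so 0 of 9 was near the background and does not show equal levels. At an unadjusted p under 0.05 in edgeR there was 1 of the 9, beside 1460 (10.9%) of all genes, so this count was near the background. DESeq2, which called 3.54% of all genes, called 1 of the 9, Cldn11. Fold changes are log2 values of gKO over gWT: 6 were positive and 3 negative, with a median of 0.05 beside 0.01 for all tested genes. The 3 libraries of gKO and the 3 of gWT did not overlap for 2 of 9 genes (22.2%), Cldn11 and Olig2, beside 21.3% of all tested genes, so their number was near the background.

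The summed level of the 9 genes was 281, 300.2 and 260 CPM in gKO, against 288, 288 and 290 CPM in gWT. The means were 280 ± 20.3 CPM in gKO, against 289 ± 1.01 CPM in gWT (SD, n = 3 each), a log2 ratio of -0.04, and the gWT values lay within the range of the gKO values. The 9 genes together made up 0.0246% to 0.0300% of a library's counts. In bulk RNA, fewer cells of a type and less RNA per cell cannot be told apart, here or in any level below.

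**Figure D1:**
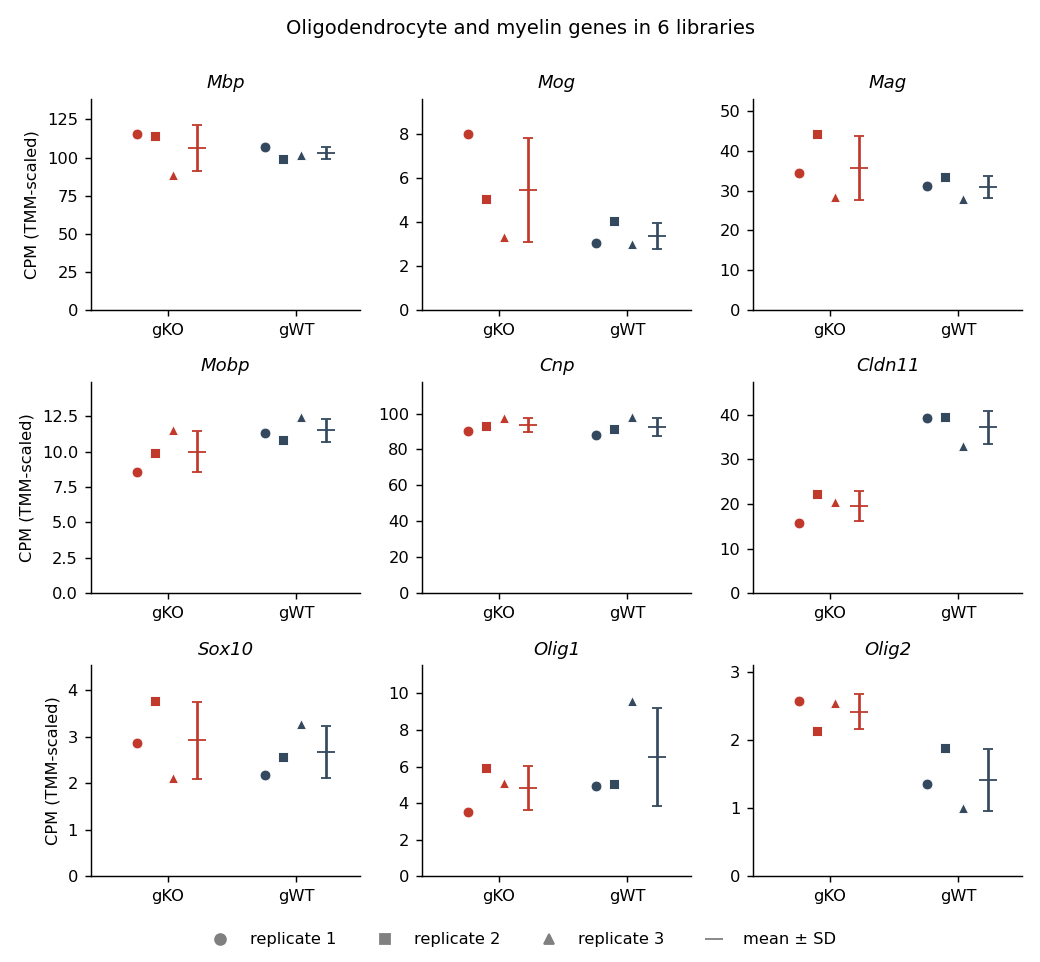
TMM-scaled CPM (vertical axes, starting at 0) of the 9 genes in each gKO and gWT library, with marker shape for the replicate number and bars for the mean ± SD of 3 libraries. Cldn11 lies between 15.8 and 22.4 CPM in gKO, below all gWT libraries, and Olig2 lies above them, while the groups overlap for the other 7 genes.

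Mbp, on chromosome 18 (82475146 to 82585637, plus strand, GRCm38), had the most counts of the 9. Its level was 115, 114 and 88.8 CPM in gKO, against 107, 99.3 and 102 CPM in gWT. The third gKO library was the lowest of the 6 and the other gKO libraries were the highest. The means of 106 ± 14.98 CPM in gKO, against 103 ± 3.91 CPM in gWT (SD, n = 3 each) gave a log2 fold change of 0.05, with a 95% interval of -0.28 to 0.37 (edgeR adjusted p = 0.940).

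Mobp, on chromosome 9 (120149707 to 120181484, plus strand), binds the inner faces of compact myelin. It had 8.59, 9.88 and 11.5 CPM in gKO, against 11.3, 10.8 and 12.4 CPM in gWT. The first gKO library was the lowest, and the third lay among those of gWT. This gave a log2 fold change of -0.20, with an interval of -0.73 to 0.32 (edgeR adjusted p = 0.813).

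Mag, on chromosome 7 (30899176 to 30914873, minus strand), is a sialic acid-binding adhesion protein that faces the axon. Its level was 34.4, 44.2 and 28.3 CPM in gKO, against 31.1, 33.4 and 27.9 CPM in gWT, with 2 gKO libraries above all of gWT and the third near the gWT minimum. The fitted log2 fold change was 0.21, with an interval of -0.25 to 0.66 (edgeR adjusted p = 0.775).

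Mog, on chromosome 17 (37010743 to 37023398, minus strand), is a surface glycoprotein known as an autoantigen in demyelinating disease. It rested on few reads, with 140, 74 and 47 counts in gKO, against 52, 71 and 51 in gWT. Its level was 8.02, 5.07 and 3.32 CPM in gKO, against 3.06, 4.06 and 2.99 CPM in gWT. The first gKO library stood highest and the third lay within the gWT range. The log2 fold change of 0.70 had an interval of -0.26 to 1.66 (edgeR adjusted p = 0.610), wide enough to hold 0 and a change of over 2 times.

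Cnp, on chromosome 11 (100574904 to 100591729, plus strand), had the smallest coefficient of variation of the 9 genes in gKO, 3.94%, while in gWT it had 5.46% and Mbp 3.81%. It had 90.4, 92.9 and 97.6 CPM in gKO, against 87.9, 91.6 and 97.9 CPM in gWT, so the gKO libraries all fell inside the range of gWT. Its log2 fold change was 0.02, with an interval of -0.26 to 0.30 (edgeR adjusted p = 0.974). Exons of Cnp overlap those of Dnajc7 on the opposite strand, and the strand setting of the counting is not given in the sources used here, so some reads of either gene could stand under the other.

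Cldn11 was the member that stood apart. It lies on chromosome 3 (31149920 to 31164324, plus strand) and encodes claudin 11, found in tight junctions of central myelin. It had 15.8, 22.4 and 20.4 CPM in gKO, against 39.2, 39.4 and 32.9 CPM in gWT, from 276, 326 and 288 counts in gKO, against 665, 690 and 562 in gWT. Every gKO library was lower than every gWT library. The means were 19.5 ± 3.36 CPM in gKO, against 37.2 ± 3.69 CPM in gWT (SD, n = 3 each), a log2 fold change of -0.93 (SE 0.19) with an interval of -1.37 to -0.50. The unadjusted p was 0.00105 in edgeR and the adjusted p was 0.103, which missed the threshold.

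Whether Cldn11 passed depended on the tool and on the libraries used. DESeq2 gave it an adjusted p of 0.00157 at a log2 fold change of -0.93. Without the third gKO library the fold change was -0.98 with an edgeR adjusted p of 0.00432, in a fit that called 7.81% of all genes. Fits that left out any other library called only 0 to 4 of all genes higher and 0 to 1 lower. They gave Cldn11 adjusted p-values of 0.140 to 0.569 in edgeR, with fold changes from -1.04 to -0.80. The size of the difference thus varied little, while the call did.

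**Figure D2:**
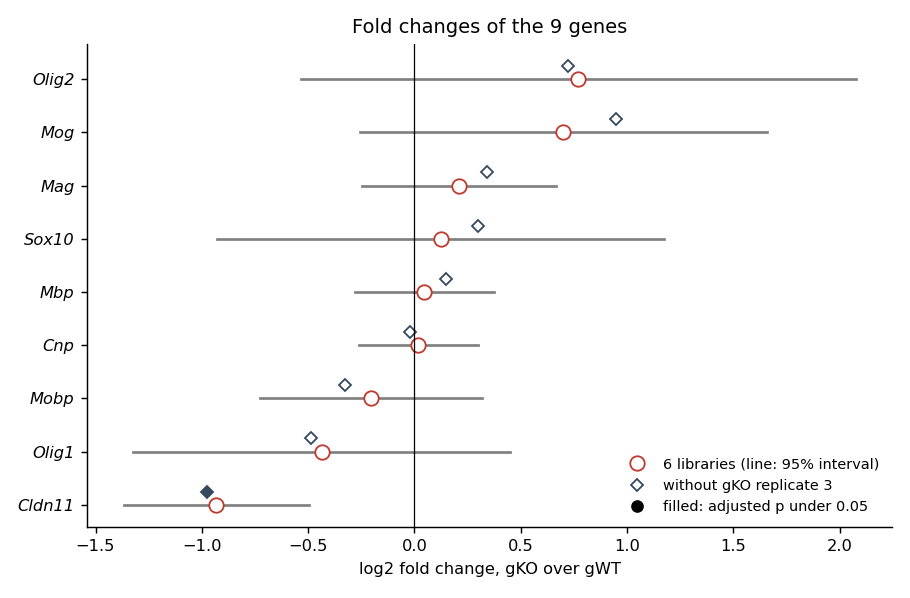
Log2 fold change of gKO over gWT (horizontal axis) for the 9 genes from edgeR, with circles for 6 libraries, lines for the 95% interval and diamonds for the fit without gKO replicate 3. A filled symbol marks an adjusted p under 0.05, reached by Cldn11 (-0.98) without that library and by none of the 9 genes with 6 libraries.

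Of the lineage transcription factors, Olig2 and Sox10 had the lowest mean levels of all members, 1.91 and 2.80 CPM over all libraries. Olig1, at 5.68 CPM, lay above the myelin gene Mog, at 4.42 CPM. Sox10, on chromosome 15 (79154908 to 79165240, minus strand), the factor that switches on myelin genes, had 2.86, 3.77 and 2.12 CPM in gKO, against 2.18, 2.57 and 3.28 CPM in gWT. The groups overlapped throughout, and the log2 fold change of 0.12 had an interval of -0.93 to 1.18 (edgeR adjusted p = 0.951).

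Olig1, on chromosome 16 (91269772 to 91271933, plus strand), promotes maturation and remyelination. It had 3.49, 5.90 and 5.09 CPM in gKO, against 4.95, 5.03 and 9.61 CPM in gWT. The third gWT library was the highest, and the other 5 libraries of both groups overlapped. The log2 fold change was -0.44, with an interval of -1.32 to 0.45 (edgeR adjusted p = 0.761), and it was -0.05 without the third gWT library.

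Olig2, its neighbour on chromosome 16 (91225457 to 91228677, plus strand), specifies the lineage. It had 2.58, 2.13 and 2.55 CPM in gKO, against 1.36, 1.89 and 0.996 CPM in gWT, so all gKO libraries lay above gWT. The counts were 45, 31 and 36 in gKO and 23, 33 and 17 in gWT. The second gKO library had 31 counts with a 95% Poisson interval of 21.1 to 44.0, against 33 counts with an interval of 22.7 to 46.3 in the second gWT library, intervals that cover counting error only. The log2 fold change of 0.77 (SE 0.57) had an interval of -0.53 to 2.08 (edgeR adjusted p = 0.695).

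Levels of different genes were compared per kilobase of the longest coding transcript. In gKO, Cnp had 39.7 ± 1.57 CPM per kilobase, Mbp 22.1 ± 3.12, Mag 14.6 ± 3.29 and Cldn11 10.4 ± 1.80 (mean ± SD, n = 3). In gWT, Cnp had 39.2 ± 2.14 CPM per kilobase, Mbp 21.4 ± 0.815, Cldn11 19.9 ± 1.97 and Mag 12.7 ± 1.15 (mean ± SD, n = 3). Cldn11 came after Mag in gKO, with ranges of mean ± SD that overlapped, and before Mag in gWT, where its range met that of Mbp. The other 5 genes ranged from 0.955 CPM per kilobase for Olig2 to 3.21 for Mog in gKO, and from 0.558 for Olig2 to 3.50 for Mobp in gWT. Among them Mog, Mobp and Olig1 overlapped in gKO, as did Sox10 and Olig2. The annotated Mbp transcripts run from 354 to 4797 bases, so its level per length depends on the transcript taken.

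The balance between the genes was also read within each library, as counts relative to those of Mbp, which does not depend on library scaling. Cldn11 counts were 13.7%, 19.6% and 22.9% of Mbp counts in gKO, against 36.6%, 39.7% and 32.3% in gWT. Mag counts were 29.8%, 38.7% and 31.8% in gKO and 29.1%, 33.7% and 27.4% in gWT. Cnp counts were 78.3%, 81.5% and 110% in gKO and 82.2%, 92.2% and 96.1% in gWT. The groups were apart for Cldn11 and overlapped for the other 7 members, Olig2 included. A ratio shows unequal change and does not say which of the genes moved.

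**Figure D3:**
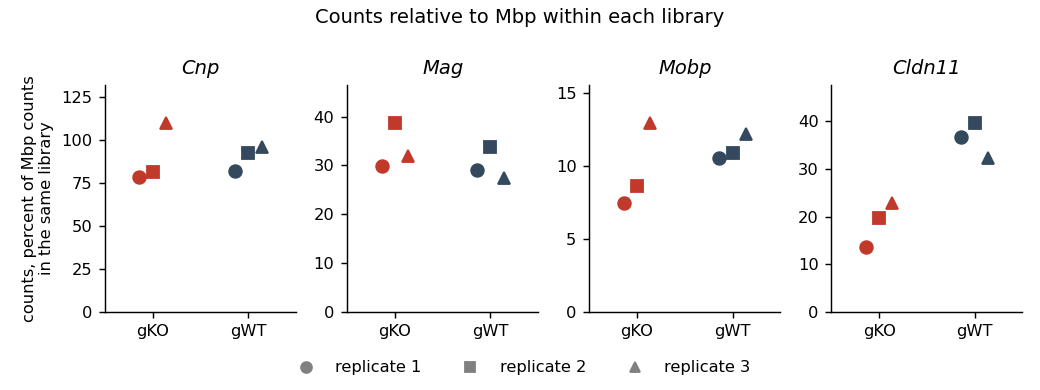
Counts of Cnp, Mag, Mobp and Cldn11 as a percentage of Mbp counts in the same library (vertical axes, starting at 0), for gKO and gWT libraries with marker shape for the replicate number. Cldn11 is lower in every gKO library (13.7% to 22.9%) than in any gWT library (32.3% to 39.7%), while Cnp, Mag and Mobp overlap.

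The 9 genes did not vary as one block from library to library. On a scale of log2(CPM + 0.5) over the 6 libraries, 15 of the 36 pairs had a positive Pearson correlation, and the median was -0.16. The values ran from -0.98 for Mog with Mobp to 0.76 for Mobp with Olig1, and Mbp with Mag gave 0.69. These pairs share the 6 libraries and their depth, and the low counts of Mog and the transcription factors add noise. Among 12128 other genes with a mean of at least 1 CPM, those most like the members' mean standardized profile over the 6 libraries were Mms19 and Dhx34 (both r = 0.98), Uckl1 and Thoc3 (both 0.97) and Aldh3a2 (0.96). These 5 are the highest of 12128 correlations over 6 libraries, and how many would be so high by chance was not tested. The profile also averages members that did not vary as one block, so the 5 names are a description only. None of these 5 is on the fixed oligodendrocyte lists. The third gKO library differed from the mean of the other gKO libraries by -0.88 (log2 of the level) for Mog, -0.54 for Sox10, -0.47 for Mag and -0.37 for Mbp, and by 0.09 to 0.31 for the other 5 members.

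A further 41 oligodendrocyte genes were looked at, of which 34 had enough counts to be tested. edgeR called 1 higher and 0 lower, beside 0.627% of all genes called in either direction. The count called higher was 0 when any library other than the third gKO library was left out. Those fits called only 0 to 4 of all genes higher, so that 0 says little about this gene. Of the fold changes 18 were positive and 16 negative, with a median of 0.02. At an unadjusted p under 0.05 there were 5 of the 34, beside the 10.9% of all genes. Without the third gKO library 1 was called in each direction, beside 7.81% of all genes, with Cd9 the one called lower (edgeR adjusted p = 0.0154). The untested genes were Opalin, Ninj2, Hapln2, Klk6, Nkx2-2, Zfp488 and St18, and Klk6 was listed at 0 in every library.

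Among the membrane proteins of myelin, the tetraspanin Cd9 had 264, 269 and 503 CPM in gKO, against 305, 335 and 338 CPM in gWT, with the third gKO library far above the rest. Tmem63a, a mechanosensitive channel, had 325 ± 67.6 CPM in gKO, against 342 ± 14.4 CPM in gWT. Of the 10 tested, 4 had positive fold changes and 6 negative, with a median of -0.04. Cntn2, an axonal and glial adhesion protein, had 0.765 ± 0.602 CPM in gKO, against 3.06 ± 0.468 CPM in gWT without passing the test (edgeR adjusted p = 0.361).

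The 12 enzymes and metabolic genes had a median log2 fold change of -0.03 and 0 calls. Trf, which encodes transferrin, had 1892 ± 52.8 CPM in gKO, against 1884 ± 12.7 CPM in gWT. Enpp2, the enzyme autotaxin, had 260 ± 72.5 CPM in gKO, against 308 ± 157 CPM in gWT, and Cers2, a ceramide synthase, 157 ± 11.7 CPM in gKO, against 165 ± 3.75 CPM in gWT. Cd9, Tmem63a, Trf, Enpp2 and Cers2 are also expressed outside the lineage, so their levels are not those of oligodendrocytes alone.

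Other groups were sparse. Of 5 tested cytoskeletal and other mature markers, Gsn, which severs actin, had 38.8 ± 4.30 CPM in gKO, against 52.5 ± 9.39 CPM in gWT. Anln had 27.8 ± 2.41 CPM in gKO, against 26.4 ± 4.04 CPM in gWT. Plekhb1 had 5.89 ± 1.79 CPM in gKO, against 3.33 ± 1.08 CPM in gWT. The 4 tested transcription factors all had positive fold changes, with a median of 0.60 and 0 calls. Tcf7l2, a Wnt effector of oligodendrocyte differentiation, made up most of their sum, with 33.4 ± 6.58 CPM in gKO, against 23.4 ± 5.38 CPM in gWT. Myrf, which directly activates myelin genes, had 2.59 ± 2.02 CPM in gKO, against 1.75 ± 0.881 CPM in gWT. Sox8 had 2.35 ± 0.997 CPM in gKO, against 1.51 ± 0.387 CPM in gWT.

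**Figure D4:**
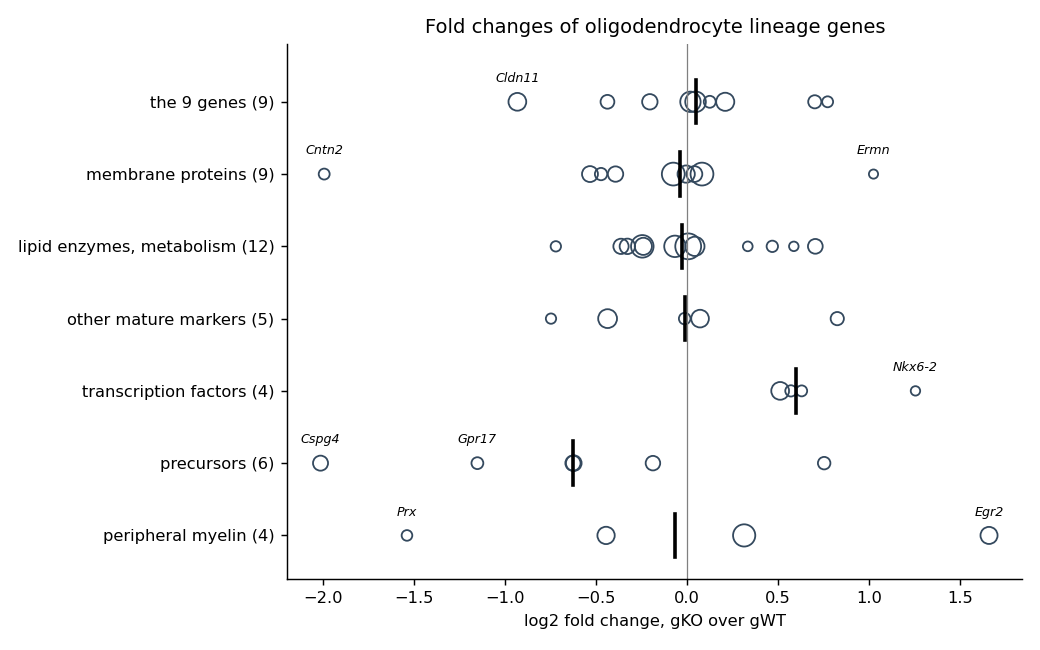
Log2 fold change of gKO over gWT (horizontal axis) of genes with an edgeR adjusted p of 0.05 or more in the oligodendrocyte, precursor and peripheral myelin lists (number plotted in brackets), with larger circles for higher mean CPM and black bars for the medians of all tested genes of a list. The medians run from -0.62 for precursors to 0.60 for transcription factors.

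Genes of oligodendrocyte precursors, the dividing cells that give rise to oligodendrocytes, had mostly negative fold changes. Of 9 genes 6 were tested, 5 were negative and 0 were called, with a median of -0.62. Their sum was 42.0, 39.1 and 23.9 CPM in gKO, against 64.2, 51.8 and 54.1 CPM in gWT, without overlap. Cspg4, the NG2 proteoglycan, which pericytes also express, had 3.64 ± 1.38 CPM in gKO, against 14.7 ± 5.20 CPM in gWT, and every gKO library was below every gWT library. Its log2 fold change of -2.01 had an adjusted p of 0.0911 in edgeR, 0.000286 in DESeq2 and 0.00515 in edgeR without the third gKO library. Bcan, a proteoglycan of the brain matrix, had 9.49 ± 3.78 CPM in gKO, against 14.6 ± 1.67 CPM in gWT, with overlapping groups. Ptprz1, a receptor phosphatase shared with astrocytes, had 7.69 ± 2.50 CPM in gKO, against 11.9 ± 0.216 CPM in gWT. Pdgfra overlapped between the groups, with 5.78, 12.7 and 2.69 CPM in gKO, against 8.25, 8.46 and 7.38 CPM in gWT. Its log2 fold change was -0.19, and that of Vcan was positive, 0.75.

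Myelin of peripheral nerves is made by Schwann cells with partly different proteins. Of their markers, Pmp2 had 0, 0 and 6 counts in gKO, against 0 in gWT. Pmp22 had 265 ± 51.4 CPM in gKO, against 214 ± 22.0 CPM in gWT, and Mpzl1 19.9 ± 3.63 CPM in gKO, against 27.1 ± 2.59 CPM in gWT. Both are expressed by many cell types. Egr2, also an early-response gene of macrophages, had 28.4, 47.8 and 20.3 CPM in gKO, against 11.4, 9.37 and 9.84 CPM in gWT (edgeR adjusted p = 0.0811), a log2 fold change of 1.66 that DESeq2 called higher (adjusted p = 0.000161), as did edgeR without the third gKO library (adjusted p = 0.000128).

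Markers of other cells were set beside these values because Cldn11 is not made by oligodendrocytes alone. It is also known from cells of the brain's outer coverings. The 11 endothelial and mural genes summed to 407 to 521 CPM in gKO, against 801 to 1032 CPM in gWT. All 11 had negative fold changes, with a median of -1.02, and edgeR called 2 lower, Cldn5 and Acta2. Cldn5, the claudin of brain endothelium, had 116, 125 and 141 CPM in gKO, against 290, 253 and 235 CPM in gWT. The 10 astrocyte genes summed to 272 to 313 CPM in gKO, against 375 to 414 CPM in gWT, with 9 negative fold changes and 0 calls.

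A list of 11 leptomeningeal genes, chosen after values of these data were known, summed to 302 to 481 CPM in gKO, against 676 to 869 CPM in gWT. All 11 had negative fold changes, with a median of -1.26, none was at 0, and edgeR called 4 lower, Col1a1, Col1a2, Col3a1 and Foxc1. The log2 fold change of Cldn11 was -0.93, beside medians of -1.02 for endothelial and mural genes and -1.26 for leptomeningeal genes. Medians of the other lists were -0.62 for precursor, -0.44 for astrocyte, -0.28 for neuronal, -0.01 for microglial and 1.13 for neutrophil genes. The other 8 members summed to 239 to 278 CPM in gKO, against 249 to 257 CPM in gWT. The part of any of these cell types in the Cldn11 and Cspg4 values was not tested. The 7 neutrophil genes found in the table summed to 492 to 967 CPM in gKO, against 250.3 to 318 CPM in gWT, all 7 with positive fold changes and 2, Ltf and Mmp9, called higher by edgeR. The 10 neuronal genes summed to 15.9 to 20.4 CPM in gKO, against 18.2 to 27.8 CPM in gWT.

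**Figure D5:**
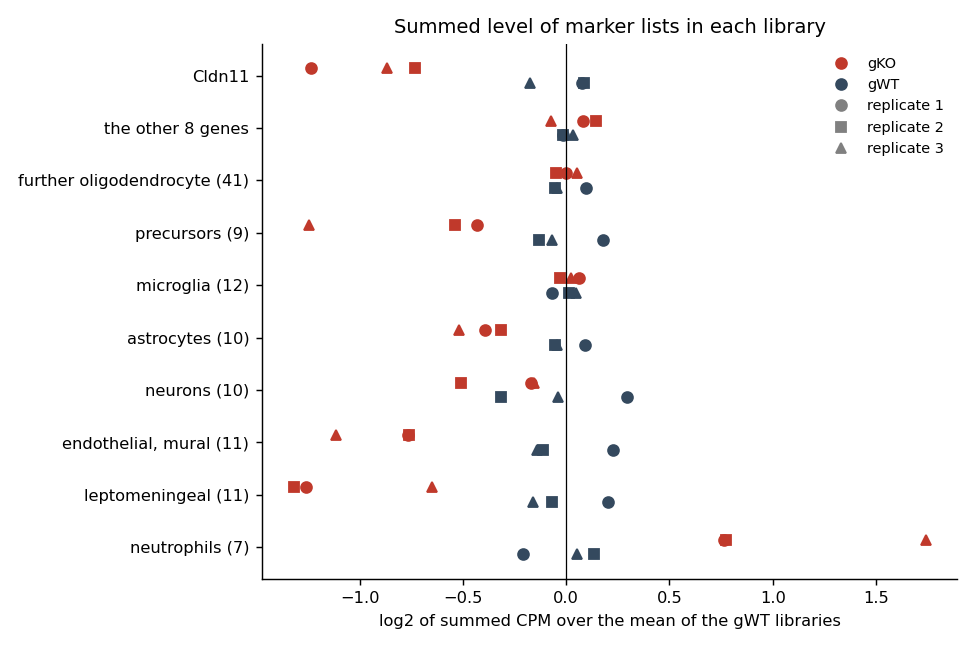
Summed CPM of Cldn11, the other 8 genes and marker lists (number of genes in brackets) in each gKO and gWT library, as log2 over the mean of the gWT libraries (horizontal axis), with marker shape for the replicate number. Cldn11, precursor, astrocyte, endothelial and leptomeningeal sums lie lower in gKO without overlap, while the other 8 genes and the microglial genes scatter around 0.

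The authors' deposited table of genes that differed lists 75 genes as higher and 201 as lower in gKO. Of the 9 members 0 appear in the authors' deposited table, and of the 41 further oligodendrocyte genes 0 appear, so Cldn11 does not. The smallest absolute log2 fold change in the authors' deposited table is 1.03 among the higher genes and 1.0002 among the lower ones, and the absolute log2 fold change of Cldn11 computed here is below those.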

How the data were processed

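Expected counts per gene symbol were estimated and deposited by the authors for 6 libraries. The tools STAR 2.7.9a, RSEM and DESeq2 and the builds GRCm38 and mm10 are listed without roles in the submitters' processing notes. The authors' deposited lists give, per the file headers, a mean normalized count (a signal), a log2 fold change, its standard error and a test statistic (scores) and a p-value before and after adjustment. Columns were matched to samples by genotype and replicate number.

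Here rounded counts went into edgeR 4.0.16 under R 4.3.3 (TMM, default filter on low counts, robust quasi-likelihood test, genotype only), with Benjamini-Hochberg adjustment over 13403 genes. Levels are TMM-scaled CPM. The test was checked on simulated counts. Alternatives were other scalings and filters, DESeq2 1.42.0, limma-voom 3.58.1, a replicate block, a correction for transcript length and each library left out. Of the symbols, 23368 matched GENCODE M21 by name and 668 a RefSeq synonym, and 375 did not match. The 3 genes of highest mean level were named from each list, but some list genes, the one called among the further oligodendrocyte genes included, are counted and not reported here; others, such as Cntn2, Acta2 and the untested genes, were named after their values were seen. Members and lists were chosen with earlier results of these data known. Poisson intervals cover counting error only.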

Additional observations from a re-analysis of the deposited data

How the results depend on the processing

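The count of all genes called higher (53) became 218 with DESeq2, 261 with voom sample weights, 157 with the length correction, 126 with the block and length correction, and 0 to 551 with 1 library left out. The count called lower (31) became 257, 152, 138 and 127 under those settings, 47 with no filter, and 0 to 528 with 1 library left out. Members called lower (0) became 1, Cldn11, with DESeq2, voom sample weights, the length correction, and the block and length correction (0 to 1 with 1 library left out, the 1 being without gKO replicate 3). Further oligodendrocyte genes called higher (1) became 0 with upper-quartile scaling and 0 to 1 with 1 library left out, and those called lower (0) became 0 to 1. Among uncalled members the log2 fold change turned sign for Cnp (-0.018 with upper-quartile scaling, -0.014 with voom sample weights, -0.00034 with the length correction, -0.000046 with the block and length correction, and -0.022 to 0.059 with 1 library left out), Mbp (-0.021 to 0.15 with 1 library left out) and Sox10 (-0.10 to 0.30). The other 6 members kept their sign in all 16 alternatives.

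Same-numbered libraries did not deviate together (correlations of 0.05, -0.05 and 0.02). Libraries of different number gave -0.097 to 0.094. With 3 libraries per group, of which the third gKO library stood apart, these values cannot tell whether the numbers pair the libraries. With the replicate block the calls over all genes fell to 11 higher and 7 lower, and those among the further oligodendrocyte genes to 0 higher. Of the members Olig2 had the fewest counts, 31 to 45 per gKO library and 17 to 33 per gWT library.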
